A study of Mus musculus with 29 samples.

Results

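The mouse mitochondrial genome carries 37 genes, and all 37 are measured here in at least 1 of the count tables of a study on blood stem cell regeneration. Members were taken as every row whose Ensembl identifier maps to a symbol that starts with mt-. They comprise 13 messenger RNAs, 2 ribosomal RNAs (rRNAs) and 22 transfer RNAs (tRNAs). All 37 are among the 38924 genes of the LSK table, and 27 of them (9 messenger RNAs, 2 rRNAs and 16 tRNAs) are among the 18194 genes of the niche table. The other 10, which are mt-Tn, mt-Ty and an unbroken run of 8 genes at chrM:6870-9458 (mt-Ts1, mt-Td, mt-Co2, mt-Tk, mt-Atp8, mt-Atp6, mt-Co3 and mt-Tg), were not analysed here for the niche.

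LSK cells are blood stem and progenitor cells sorted as lineage-negative, Sca-1-positive and Kit-positive. They were collected after transplantation, in 6 libraries from a wild-type (WT) niche and 5 from a niche haploinsufficient for Wnt5a (here Wnt5a), a gene for a secreted signalling protein. The genotype of an LSK library is therefore that of the niche. The sorted niche populations, endothelial (EC), osteoblastic (OBC) and mesenchymal (MSC) cells, were each profiled in 3 WT and 3 Wnt5a libraries. All groups carry the strain label 129Ly5.1. The sources used here do not say how the Wnt5a allele was made, how old the animals were or whether animals were pooled. Nor do the labels say that libraries come from separate animals, so that p-values measure the spread between these libraries, which may be technical.

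Mitochondrial DNA is a small circle that is transcribed on both strands into long precursors. The tRNAs lie between the other genes, and their excision releases the rRNAs and messenger RNAs. The messenger RNAs encode core subunits of the respiratory chain and of ATP synthase, and the rRNAs and tRNAs serve the ribosomes inside the organelle that translate them. Most mitochondrial messenger RNAs carry a short poly(A) tail, which in some of them supplies the end of the stop codon. Here 28 genes read in the sense of the plus strand of the reference, and 9 (mt-Nd6 and 8 tRNAs), the light-strand genes in the usual naming, read from the minus strand.

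The sequences that the counts turn on are shown first, taken from the GENCODE transcripts of GRCm38. The tRNAs that hold most of the mitochondrial tRNA counts, and mt-Ta, which passed a test in the niche, are given with the anticodon in capitals. In the LSK table mt-Ts1 held 52.1% and mt-Tp 12.4% of 11583 mitochondrial tRNA reads. In the niche table mt-Tp held 29.6%, mt-Tc 28.6% and mt-Tq 14.98% of 1816 UMIs (unique molecular identifiers, each standing for 1 captured molecule). All 5 lie on the minus strand of the reference, at chrM:6870-6938 (mt-Ts1), chrM:15356-15422 (mt-Tp), chrM:5192-5257 (mt-Tc), chrM:3772-3842 (mt-Tq) and chrM:5018-5086 (mt-Ta).
mt-Ts1: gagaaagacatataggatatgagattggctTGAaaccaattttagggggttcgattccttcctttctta
mt-Tp: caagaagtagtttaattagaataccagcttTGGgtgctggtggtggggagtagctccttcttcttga
mt-Tc: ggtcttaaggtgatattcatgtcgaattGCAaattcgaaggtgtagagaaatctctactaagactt
mt-Tq: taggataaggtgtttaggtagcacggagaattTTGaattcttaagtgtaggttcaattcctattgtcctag
mt-Ta: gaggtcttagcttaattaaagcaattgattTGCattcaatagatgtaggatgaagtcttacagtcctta

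The niche protocol is known to prime on poly(A) and to count the 3′ ends of transcripts, so the ends of the messenger RNAs and rRNAs are shown as well. In the messenger RNAs below, the last in-frame bases are in capitals. Of the 13 messenger RNAs, 10 end in a complete stop codon, and mt-Co3, mt-Nd4 and mt-Cytb end in a lone T.
mt-Nd1: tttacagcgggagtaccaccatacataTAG
mt-Nd3: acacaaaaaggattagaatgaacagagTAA
mt-Nd5: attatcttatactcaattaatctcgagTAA
mt-Nd4: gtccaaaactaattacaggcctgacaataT
mt-Cytb: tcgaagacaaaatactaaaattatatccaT

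The last 60 bases of the rRNAs follow, with runs of at least 4 A in capitals. mt-Rnr2 holds such runs there, and mt-Rnr1 holds none.
mt-Rnr1: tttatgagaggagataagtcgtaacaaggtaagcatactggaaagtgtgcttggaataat
mt-Rnr2: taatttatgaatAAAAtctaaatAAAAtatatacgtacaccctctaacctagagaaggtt

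Copies of mitochondrial DNA lie in the nuclear genome and can share reads with the members. In 7 messenger RNAs (mt-Co1, mt-Co2, mt-Co3, mt-Atp6, mt-Nd3, mt-Nd4l and mt-Nd4) part of the sequence matched an annotated nuclear transcript at 99% identity or more. That part covered 31.3% of mt-Co1, 63.6% of mt-Nd4 and at least 98.99% of the other 5. Over the last 90 aligned bases, mt-Co1 and Gm13340 (chr2:22588103-22589647, minus strand) differ at 3 bases, in capitals, and mt-Nd4l and Gm10222 (chr1:24612407-24612700, minus strand) at 0.
mt-Co1: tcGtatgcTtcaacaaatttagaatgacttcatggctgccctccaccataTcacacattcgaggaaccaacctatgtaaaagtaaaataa
Gm13340: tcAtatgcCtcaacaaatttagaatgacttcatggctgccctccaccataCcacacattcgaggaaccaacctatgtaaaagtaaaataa
mt-Nd4l: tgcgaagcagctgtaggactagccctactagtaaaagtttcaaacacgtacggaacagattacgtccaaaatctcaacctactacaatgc
Gm10222: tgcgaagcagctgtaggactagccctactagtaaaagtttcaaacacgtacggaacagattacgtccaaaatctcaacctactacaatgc

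Library depth ran from 1254553 to 5775459 reads for LSK and from 10635 to 117989 UMIs for the niche, with OBC the shallowest. Wnt5a itself had 0 to 1 reads in the WT and 0 to 5 in the Wnt5a LSK libraries, too few to check the labels, and was not analysed here in the niche. All 12 genes of an LSK marker list were detected in the LSK libraries. A list of 12 osteoblast genes summed to 0.335% to 1.83% of the counts in OBC and 0.129% to 0.363% in EC and MSC, with Dmp1 at 0 in OBC WT and Runx2 at 0 in OBC Wnt5a. A list of 14 endothelial genes summed to 0.886% to 1.59% in EC, but also to 0.636% to 1.43% in MSC. A list of 12 mesenchymal genes summed to 0.458% to 1.06% in MSC, 0.341% to 0.839% in OBC and 0.251% to 0.428% in EC, so it did not set MSC apart from OBC, and all MSC WT libraries held more endothelial (1.20% to 1.43%) than mesenchymal counts (0.669% to 0.817%). Thy1 was at 0 in all EC and OBC and in the MSC Wnt5a libraries, Pdgfra in OBC and Lepr in EC WT. In such sorted bulk samples, fewer cells of a type and less RNA per cell cannot be told apart.

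In the WT niche, mitochondrial transcripts made up a several-fold larger share of the counts in osteoblastic cells (15.4%) than in MSC (2.10%) or EC (1.68%). In the Wnt5a niche the OBC mean was under 2 times that of MSC (6.81% and 3.49%) and their libraries overlapped, and the means of the genotypes differed in opposite directions. In OBC WT libraries the share was 17.1%, 17.1% and 11.96%, and in OBC Wnt5a libraries 8.39%, 8.47% and 3.57%. Every Wnt5a library lay below every WT library. The means were 15.4% ± 2.96 for WT and 6.81% ± 2.81 for Wnt5a (SD, n = 3 each), with an exact permutation p = 0.1.

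The EC shares were 1.84%, 0.9505% and 2.26% in WT and 2.51%, 2.65% and 2.48% in Wnt5a. Those of MSC were 2.28%, 1.80% and 2.22% in WT and 2.66%, 4.43% and 3.39% in Wnt5a. In both populations every Wnt5a library lay above every WT library. The EC means were 1.68% ± 0.669 and 2.55% ± 0.0896, and the MSC means 2.10% ± 0.260 and 3.49% ± 0.894 (SD, n = 3). The exact permutation p was again 0.1, which 3 against 3 libraries cannot go below, and 0.16 after Benjamini-Hochberg adjustment over 24 tests. No niche population can pass the threshold in this test alone. The exact 95% binomial interval of the shallowest OBC library, 11.4% to 12.6% around 11.96%, is narrow beside the spread between libraries, and covers counting error only.

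**Figure D1:**
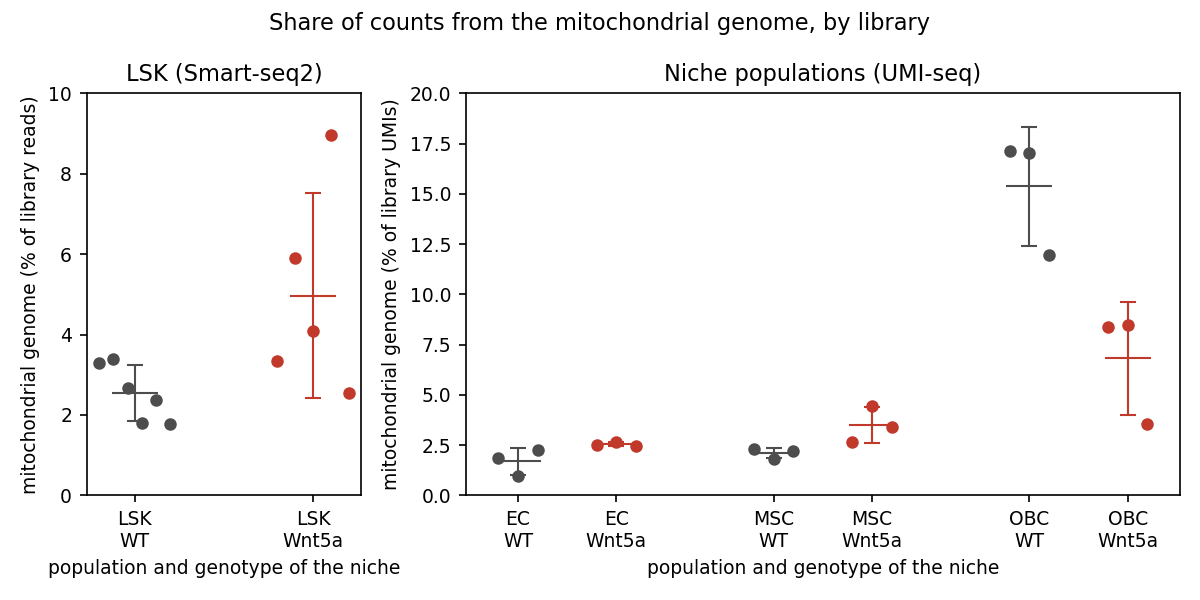
Share of each library's counts (percent, vertical axis) that fell on mitochondrial genes, with LSK (reads) and niche populations (UMIs) on separate axes, by niche genotype; points are libraries, and lines are group means with SD. The OBC WT libraries sit at 11.96% to 17.1%, above every other library of the study.

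The genotype difference of the share was negative in OBC and positive in EC and MSC. For the pairs of populations next given, the permutation shuffled genotype within each population. Its p is therefore for no genotype difference in either population of a pair, and does not by itself test whether their differences are equal. Taking Wnt5a minus WT in percentage points, OBC minus EC was −9.43 and OBC minus MSC was −9.96, each with an exact permutation p = 0.005, the smallest that 400 arrangements can give, and an adjusted p = 0.0075. Without the OBC Wnt5a library numbered 12 both had an adjusted p = 0.0525 (−7.81 and −8.34 points). Between MSC and EC the difference was 0.529 points (exact permutation p = 0.59). Averaged over genotypes, OBC exceeded EC by 8.98 points (exact permutation p = 0.005, adjusted p = 0.015) and MSC by 8.30 (p = 0.01, adjusted p = 0.015, exact permutation). MSC exceeded EC by 0.683 points (exact permutation p = 0.065), with an adjusted p from 0.025 to 0.035 without the MSC WT library 2, the EC WT library 15 or the MSC Wnt5a library 4.

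Most mitochondrial counts of the niche were rRNA. In OBC, rRNA took 11.6% of all counts in WT and 5.72% in Wnt5a, and messenger RNA took 3.28% and 0.853%. For both classes each Wnt5a library was below each WT library. Within the mitochondrial counts, the rRNA share was 76.1% ± 5.97 in OBC WT and 84.0% ± 0.519 in OBC Wnt5a (SD, n = 3), with no overlap (exact permutation p = 0.1).

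In EC and MSC the groups were apart for rRNA and overlapped for messenger RNA. The rRNA share of all counts was 1.16% in EC WT and 1.98% in EC Wnt5a, and 1.41% in MSC WT and 2.78% in MSC Wnt5a, without overlap in either population. Messenger RNA shares of all counts overlapped, at 0.314% and 0.417% in EC and 0.504% and 0.584% in MSC for WT and Wnt5a. Genes that overlap or resemble nuclear rRNA, a sign of library state, took 1.86% to 4.26% of the counts in EC WT and 4.40% to 11.6% in EC Wnt5a. In MSC they took 4.77% to 7.14% in WT and 5.35% to 14.4% in Wnt5a. In OBC they took 9.91% to 11.8% in WT, above every EC WT and MSC WT library, and 8.86% to 13.2% in Wnt5a. Their part in the mitochondrial rRNA differences between genotypes or between populations was not tested. The EC WT library numbered 14 had both the lowest mitochondrial share and 24.3% haemoglobin counts, against at most 6.28% in the other EC libraries, and without it the EC difference was 0.495 in place of 0.862 points.

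Divided by transcript length, as counts per 1e6 counts (CPM) per kilobase, mt-Rnr2 (the large rRNA, chrM:1094-2675) stood first and mt-Rnr1 (the small rRNA, chrM:70-1024) second among rRNAs and messenger RNAs in all 6 niche groups. The short tRNAs were not ranked with them, and some stood higher, such as mt-Tc at 15254 in EC WT against 6325 for mt-Rnr2. In OBC WT their levels were 61577 ± 6005 and 19336.5 ± 7576 (SD, n = 3), a gap wider than the SDs. Then came mt-Nd1 at 9413 ± 5105, mt-Cytb at 5981 ± 3067, mt-Nd4 at 5909 ± 2081 and mt-Nd2 at 4399 ± 2705, whose neighbours did not differ beyond their SD. mt-Co1 ranked eighth of the 11 rRNAs and messenger RNAs in the table, at 1063 ± 460. Since this protocol counts 1 end of a molecule, division by length is only a rough scale for the niche.

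The LSK libraries, made by a full-length protocol and counted in reads, gave another order, with mt-Rnr1 first at 6240 ± 2681 per kilobase in WT (SD, n = 6) and mt-Rnr2 seventh of 15 at 1474 ± 772. Between them stood mt-Cytb (3025 ± 577), mt-Atp6 (2592 ± 536), mt-Co1 (2446 ± 444), mt-Nd1 and mt-Co3. The ratio of mt-Rnr2 to mt-Rnr1 per length was 0.175 to 0.283 in LSK libraries and 2.31 to 6.73 in niche libraries. In OBC this ratio was 2.31 to 4.88 in WT and 4.95 to 6.62 in Wnt5a. The nearest libraries, at 4.88 and 4.95, rest on 116 and 136 UMIs of mt-Rnr1, so the groups are not read as apart. The values of LSK and niche cells are set side by side only, because protocol and cell type cannot be told apart.

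**Figure D2:**
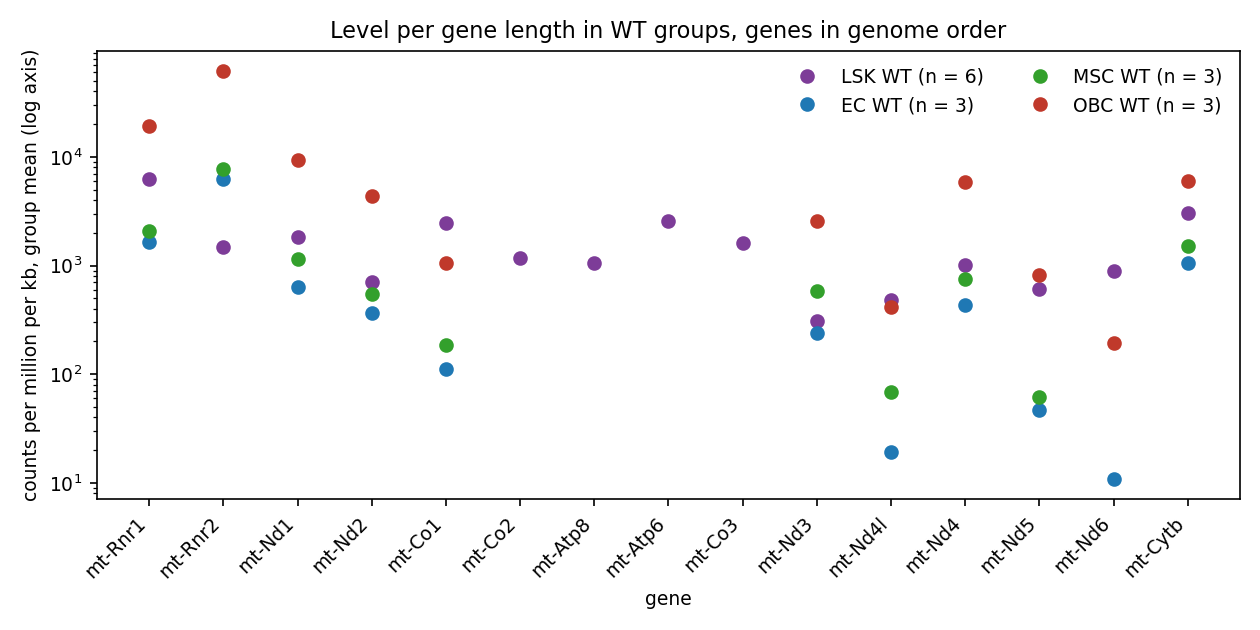
Mean level of the rRNAs and messenger RNAs, in genome order, in CPM per kilobase of transcript (log scale), for the 4 WT groups; genes without a niche row have the LSK point alone, and a mean of 0 (mt-Nd6 in MSC) is not drawn. mt-Rnr2 is the highest rRNA or messenger RNA point of EC, MSC and OBC, and mt-Rnr1 that of LSK.

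In osteoblastic cells of the Wnt5a niche 6 of the 7 tested respiratory chain messenger RNAs and the small rRNA fell, and mt-Co1 and mt-Rnr2 did not pass the test. In the fit over all 18 niche libraries, 13 of the 27 members passed the filter on low counts. Of these, mt-Nd3, mt-Nd5 and mt-Ta passed it only through the OBC WT libraries, where they are high, so that their entry into the test already favoured a difference there. In OBC 7 members fell, 5 of them (mt-Nd1, mt-Nd2, mt-Nd4, mt-Cytb and mt-Rnr1) among the 10 that pass the filter without the OBC WT libraries (edgeR's quasi-likelihood test, Benjamini-Hochberg adjusted p under 0.05). Of the 1099 genes tested, 13, or 1.18%, fell, so members are 7 of those 13. All 10 filter-independent members had a negative log2 fold change of Wnt5a over WT, with a median of −1.64, against −0.01 over all genes tested. Among rows with at least 15 counts in OBC, in 13 of 15 members each Wnt5a library was below each WT library, against 6.72% of all such rows. Of these, mt-Tv, mt-Ta, mt-Nd3 and mt-Nd5 reached 15 counts only through the OBC WT libraries, so that their entry favoured this outcome. Summed UMIs in WT and Wnt5a were 14 and 1 for mt-Tv, 22 and 2 for mt-Ta, and 68 and 5 for mt-Nd3.

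The subunits of complex I, which takes electrons from NADH, come first. mt-Nd5 (chrM:11742-13565) stood at 1763, 1982 and 752 CPM in WT and 224, 228 and 72.9 CPM in Wnt5a, with counts of 46, 59 and 8 against 4, 4 and 1 UMIs. The lowest WT library (752 CPM on 8 UMIs) was above the highest Wnt5a library (228 CPM on 4 UMIs). This gap rests on few counts, and the Wnt5a values sit near the floor of 3 counts. Its log2 fold change was −3.25 (SE 0.563, edgeR's quasi-likelihood adjusted p = 0.000546). This gene entered through the OBC WT libraries, and with no filter at all its value was −3.32 (edgeR adjusted p = 3.42e-05).

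mt-Nd3 (chrM:9459-9806) had 34, 30 and 4 UMIs in WT and 2, 2 and 1 in Wnt5a, or 1303, 1008 and 376 CPM against 112, 114 and 72.9. The groups did not overlap, and the log2 fold change was −3.36 (SE 0.619, edgeR adjusted p = 0.000931). It too entered through the OBC WT libraries, and with no filter its value was −3.44 (edgeR adjusted p = 0.000559). Every Wnt5a library of this gene was below 3 counts, so the size of the fall is poorly bounded.

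mt-Nd1 (chrM:2751-3707) was better covered, with 8625, 14074 and 4325 CPM in WT and 2350, 2389 and 1166 in Wnt5a. Its groups did not overlap either, and its log2 fold change was −2.36 (SE 0.454, edgeR adjusted p = 0.00134). mt-Nd2 (chrM:3914-4951), with 5175, 7020 and 1504 against 1175, 1081 and 510 CPM, fell by 2.49 (SE 0.509, edgeR adjusted p = 0.00532) on the log2 scale. mt-Nd4 (chrM:10167-11544), with 11001, 8162 and 5266 against 3581, 2503 and 1311 CPM, fell by 1.86 (SE 0.453, edgeR adjusted p = 0.0210). In both, every Wnt5a library lay under every WT library.

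The cytochrome b message of complex III and the rRNAs had negative values as well. mt-Cytb (chrM:14145-15288) stood at 9276, 8431 and 2821 CPM in WT and 2462, 2446 and 1239 in Wnt5a, without overlap, which on the log2 scale is −1.91 (SE 0.443, edgeR adjusted p = 0.0122). mt-Rnr1 fell by 1.89 (SE 0.511, edgeR adjusted p = 0.0459), from 19166, 25326 and 10907 CPM to 7609, 5974 and 3060. With 1 library left out at a time, mt-Rnr1 no longer passed in 8 of 18 fits (edgeR adjusted p up to 0.349). mt-Rnr2, by far the most abundant, did not pass at −1.03 (SE 0.524, edgeR adjusted p = 0.580), although its libraries did not overlap (107176, 96870 and 88199 against 62381, 65540 and 26956 CPM).

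mt-Co1, a core subunit of complex IV (chrM:5328-6872), did not pass either. It had 2453, 1344 and 1128 CPM in WT and 951, 796 and 510 in Wnt5a, or −1.27 on the log2 scale (SE 0.401, edgeR adjusted p = 0.150). Of the tRNAs tested, mt-Ta had −3.07 (SE 1.01, edgeR adjusted p = 0.186) on 0 to 1 UMIs in the Wnt5a libraries, mt-Tp had −0.95, mt-Tq −1.41 and mt-Tc −0.92, the last 3 with edgeR adjusted p from 0.333 to 0.842. mt-Nd6 and mt-Nd4l were under the filter, with at most 9 UMIs in any OBC library.

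**Figure D3:**
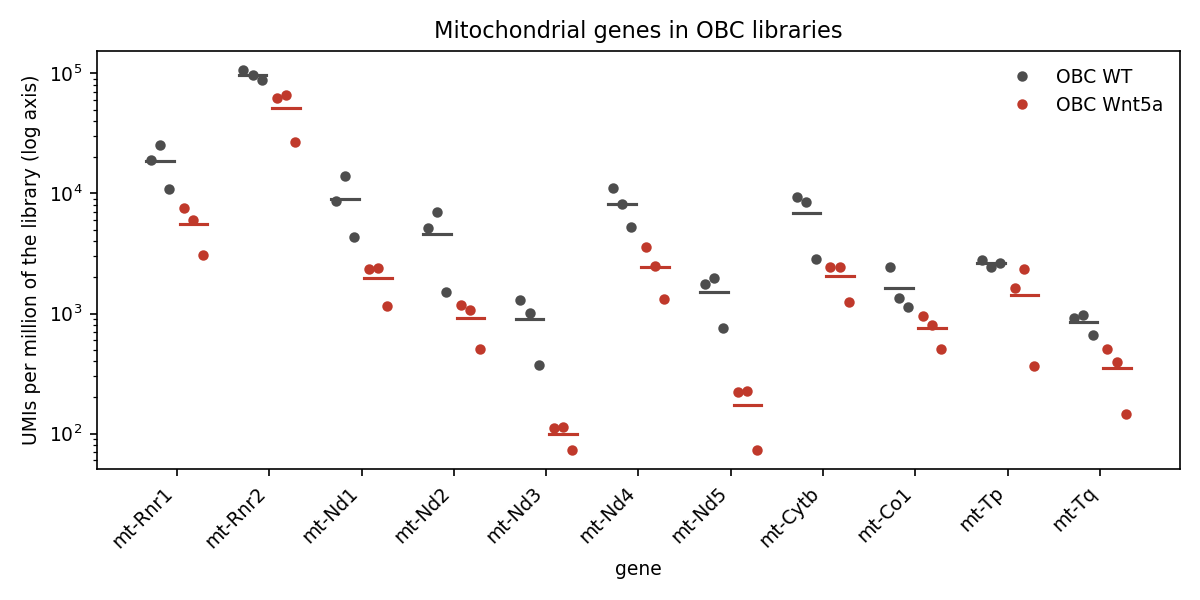
CPM (log scale) of the rRNAs, 7 messenger RNAs and the tRNAs mt-Tp and mt-Tq in the 3 WT and 3 Wnt5a OBC libraries; points are libraries and lines are means. For all 11 genes drawn the WT points all lie above the Wnt5a points.

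The count of 7 depended on single libraries, while mt-Nd1 passed whichever of the 18 libraries was left out. So did mt-Nd3 and mt-Nd5, with the limit of the filter given above. Without the OBC WT library 7 or 8, or without the OBC Wnt5a library 12, 3 members fell. Beside this stand other differences between the OBC groups. Osteoblast genes took 0.649% to 1.83% of the counts in WT and 0.335% to 0.626% in Wnt5a. Col1a1, Col1a2 and Spp1, which encode bone matrix proteins, fell among 5 tested, where 1.18% of all genes tested fell. Whether they passed the filter only through the OBC WT libraries is not given here. Neutrophil genes took 0.264% to 0.517% in WT and 0.597% to 0.927% in Wnt5a, and haemoglobin genes 3.42% to 6.47% and 5.16% to 11.96%. Their part in the fall of the mitochondrial transcripts was not tested.

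No member passed in EC or MSC, where most log2 fold changes were positive. In EC, 0 of 13 members passed (4 of 1099 genes tested, or 0.364%, passed), 9 had a positive log2 fold change, and 1 had an unadjusted p under 0.05. That 1 was mt-Nd3, which passed the filter only through the OBC WT libraries. The share of all genes under that level is not given here, so such counts in EC, MSC and the niche mean are not read as a result. mt-Rnr1 had 0.74 (SE 0.501), mt-Rnr2 0.74 (SE 0.522), mt-Nd4 0.85 (SE 0.450) and mt-Co1 0.78 (SE 0.414), with edgeR adjusted p from 0.603 to 0.726. mt-Nd3 had 84.1, 73.5 and 93.2 CPM in WT and 270, 253 and 105 in Wnt5a, without overlap, or 1.16 on the log2 scale (SE 0.498, edgeR adjusted p = 0.488). mt-Rnr2, mt-Co1 and mt-Nd3 were the 3 of 18 members with at least 15 counts whose Wnt5a libraries were all above the WT libraries, against 4.38% of all such EC rows.

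The cysteine tRNA mt-Tc varied widely among the EC Wnt5a libraries. It stood at 1201, 1082 and 737 CPM in WT and 53.9, 927 and 175 in Wnt5a, overlapping, with −1.24 on the log2 scale (SE 0.618, edgeR adjusted p = 0.600). Without the EC Wnt5a library 17 it alone passed, as lower in Wnt5a. Other tools called 0 members in EC as well (DESeq2 with 3 and limma voom with 5 at an unadjusted p under 0.05).

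In MSC, 0 of 13 members passed (5 of 1099 genes, or 0.455%, passed), 9 were positive and 2 had an unadjusted p under 0.05. Those 2 were mt-Rnr2 and mt-Ta, of which mt-Ta passed the filter only through the OBC WT libraries. mt-Rnr2 stood at 12574, 10200 and 13736 CPM in WT and 18951, 30407 and 24125 in Wnt5a. Its groups did not overlap, and its log2 fold change was 1.11 (SE 0.525, edgeR adjusted p = 0.260), which became 1.12 with an adjusted p = 0.0211 when the 6 MSC libraries were fitted alone. mt-Rnr1 had 0.89 (SE 0.505, edgeR adjusted p = 0.353) and mt-Nd5 1.05 (SE 0.587, edgeR adjusted p = 0.344). The smallest p was that of mt-Ta, in the opposite direction (−2.17, SE 0.853, edgeR adjusted p = 0.166), with 13, 8 and 3 UMIs in WT and 1, 1 and 2 in Wnt5a. It was the only 1 of 17 members with at least 15 counts whose Wnt5a libraries were all below the WT libraries. Of all such MSC rows, 413 of 3292 were below. mt-Ta reached 15 counts only through the MSC WT libraries (24 UMIs against 4), so that its entry favoured this outcome. mt-Rnr2 and mt-Co1 were the 2 of 17 members whose Wnt5a libraries were all above the WT libraries, against 6.47% of all MSC rows with at least 15 counts.

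Averaged over the 3 niche populations, 1 member passed, the alanine tRNA mt-Ta, which fell by 1.87 on the log2 scale (SE 0.491, edgeR's quasi-likelihood adjusted p = 0.0220), where 0.910% of genes tested fell. It had 8, 11 and 3 UMIs in OBC WT and 0, 1 and 1 in OBC Wnt5a, 13, 8 and 3 in MSC WT and 1, 1 and 2 in MSC Wnt5a, and 13, 19 and 9 against 2, 20 and 2 in EC. The Wnt5a values lay at or under 3 counts in 8 of 9 libraries, so the size is uncertain. mt-Ta passed the filter only through the OBC WT libraries, and with no filter it had −1.89 (edgeR adjusted p = 0.0479). Of the 10 members that pass the filter without those libraries, 0 passed this test (edgeR; 3 at an unadjusted p under 0.05). It no longer passed without the MSC WT library 1, the MSC Wnt5a library 5 or the OBC Wnt5a library 10, nor with DESeq2. Without the EC WT library 14 or 15, the EC Wnt5a library 17, the MSC WT library 3 or the OBC WT library 9, 2 members passed.

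The members that passed the test of the interaction were complex I messages, but members of other kinds came close. With genotype and population in 1 test, 4 members differed in their response between populations (mt-Nd1, mt-Nd3, mt-Nd4 and mt-Nd5), out of 6 of 1099 genes, or 0.546%. In that test mt-Rnr1 had an edgeR adjusted p = 0.0515. The complex I message mt-Nd2, mt-Cytb and mt-Co1 each had 0.0995. Passing therefore does not set complex I messages apart from the other members. For OBC minus EC, the difference of log2 fold changes was −4.52 for mt-Nd3 (SE 0.808, edgeR adjusted p = 0.00103), −3.83 for mt-Nd5 (SE 0.806, edgeR adjusted p = 0.00962) and −2.71 for mt-Nd4 (SE 0.638, edgeR adjusted p = 0.0363). These are 3 of the 4 genes that were lower in that test, or 0.364% of those tested. For OBC minus MSC it was −4.29 for mt-Nd5 (SE 0.826, edgeR adjusted p = 0.00375) and −2.67 for mt-Nd1 (SE 0.632, edgeR adjusted p = 0.0276), again with 0.364% of all genes lower. Among the 10 members that pass the filter without the OBC WT libraries, 2 passed the joint test, 1 that for OBC minus EC and 1 that for OBC minus MSC. Of the members named, mt-Nd3 and mt-Nd5 entered the tests only through the OBC WT libraries. With no filter they had −4.51 (edgeR adjusted p = 0.00342) and −3.85 (0.00853) for OBC minus EC, and mt-Nd5 had −4.38 (0.000789) for OBC minus MSC. For MSC minus EC, 0 members and 0 of all 1099 genes passed, so the background was 0%, with 0 members and 60 genes at an unadjusted p under 0.05, and DESeq2 and limma voom called 0 genes too.

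Counts in these tests moved with single libraries. The share over all genes is not given for these fits, so the counts show only that the calls moved. For OBC minus EC, 0 members passed without the EC Wnt5a library 17, 1 without the OBC Wnt5a library 12, 5 without the EC WT library 15 and 8 without the OBC WT library 9. For OBC minus MSC, 1 passed without the MSC WT library 2 or 3, the MSC Wnt5a library 5 or 6, the OBC WT library 7 or 8 or the OBC Wnt5a library 12. There 4 passed without the EC WT library 13, 6 without the EC WT library 14 and 7 without the OBC WT library 9. In the joint test 2 passed without any 1 of 8 libraries (EC Wnt5a 17, MSC Wnt5a 5 and 6, MSC WT 2 and 3, OBC Wnt5a 12, OBC WT 7 and 8), 7 without EC WT 13, and 8 without EC WT 15 or OBC WT 9.

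**Figure D4:**
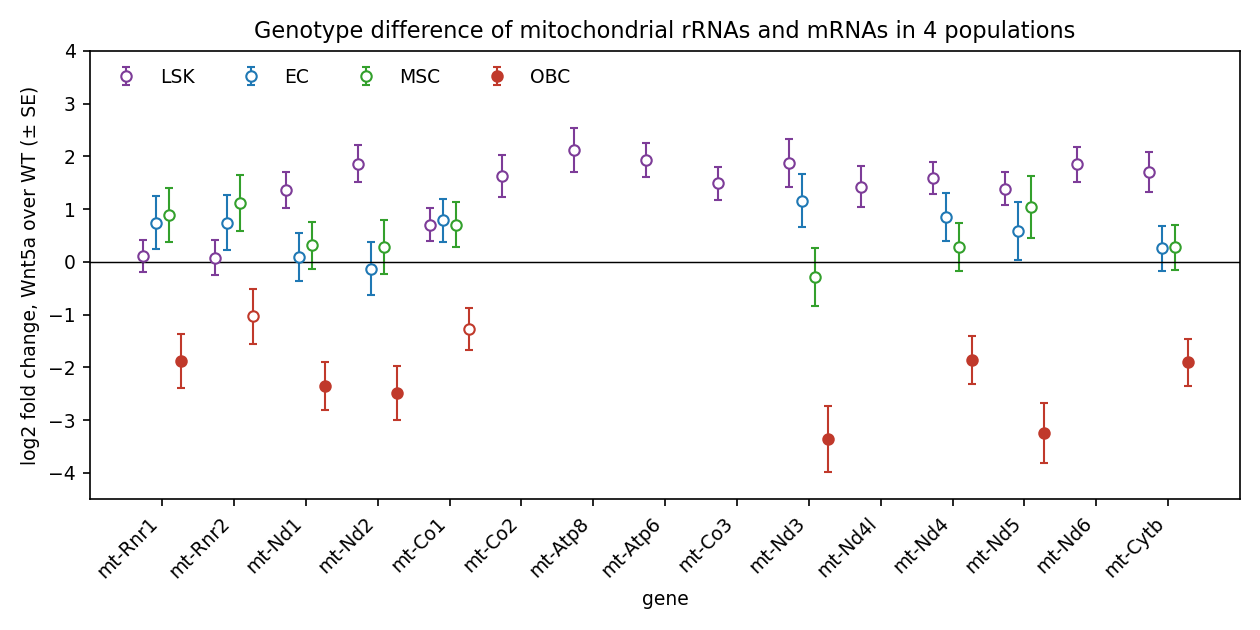
Log2 fold change of Wnt5a over WT with its SE for the tested rRNAs and messenger RNAs in LSK, EC, MSC and OBC; filled symbols mark an edgeR adjusted p under 0.05. All 9 OBC values are below 0 and 7 are filled, and no LSK, EC or MSC symbol is filled.

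Averaged over genotypes, OBC stood above the mean of EC and MSC for 11 of the 13 members tested (edgeR's quasi-likelihood test), where 19.3% of all genes tested were higher. Among the 10 members that pass the filter without the OBC WT libraries it was 9, with a median log2 difference of 2.44, against −0.24 for all genes tested. mt-Nd1 had 2.58, mt-Nd4 2.54, mt-Rnr2 2.53, mt-Rnr1 2.45 and mt-Tp 2.44, with SE from 0.255 to 0.306, while mt-Nd3 had 1.32 (SE 0.462, edgeR adjusted p = 0.0177), which became 0.78 with an adjusted p = 0.465 when no filter was used. The tRNAs mt-Ta (0.46, SE 0.720, edgeR adjusted p = 0.617) and mt-Tc (−0.09, SE 0.525, edgeR adjusted p = 0.902) did not pass.

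From the same 18 libraries, EC stood below the mean of OBC and MSC for 10 members (8 of the 10 that pass the filter without the OBC WT libraries), where 15.7% of all genes were lower, with mt-Nd1 at −2.004 (SE 0.294, edgeR adjusted p = 8.4e-07). MSC stood below the mean of the others for mt-Nd4 (−0.88, edgeR adjusted p = 0.0495) and mt-Tq (−1.49, edgeR adjusted p = 0.00753), where 1.91% of all genes were lower. The MSC count was 4 without the EC WT library 14, 3 without the OBC WT library 9 or the OBC Wnt5a library 12, 2 without the EC Wnt5a library 16 and 1 without any 1 of the other 14.

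In LSK cells the mitochondrial messenger RNAs, but not the rRNAs, had higher average levels in the Wnt5a niche, without any gene passing the main test. The mitochondrial share of reads was 1.77% at the lowest, 2.53% at the median and 3.39% at the highest in the 6 WT libraries. The 5 Wnt5a libraries had 3.35%, 5.89%, 4.09%, 8.96% and 2.54%. Their ranges overlapped, since Wnt5a libraries 1 and 5 lay among the WT values. The means were 2.55% ± 0.703 and 4.97% ± 2.55 (SD, n = 6 and 5), with an exact permutation p = 0.0216 and an adjusted p = 0.104.

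The classes of RNA differed in this. Messenger RNA took 1.70% ± 0.359 of reads in WT and 4.12% ± 2.36 in Wnt5a (SD; exact permutation p = 0.00433, adjusted p = 0.0519). The rRNA share was 0.829% ± 0.375 and 0.781% ± 0.221 (exact permutation p = 0.790). The tRNA share, at 0.0247% and 0.0618%, had an exact permutation p = 0.00649 (adjusted p = 0.0519). Within the mitochondrial reads, rRNA accordingly took 31.2% in WT and 17.5% in Wnt5a (exact permutation p = 0.0108, adjusted p = 0.0649).

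Of the 37 members, 28 passed the filter on low counts in LSK, of which 20 would also pass in the WT libraries alone. Log2 fold changes of Wnt5a over WT were positive for all 20 of these, with a median of 1.67 against 0.02 over all 13098 genes tested. The other 8 are tRNAs that needed the Wnt5a libraries to pass. By edgeR's quasi-likelihood test 0 members passed, with 23 at an unadjusted p under 0.05, and over all genes 3, or 0.0229%, passed. Unadjusted p-values under 0.05 were common over all genes of this fit, where mt-Co1 at 0.0396 had an adjusted p = 0.247 (edgeR). The share of all genes under that level is not given here, so the 23 are not read as a result. limma voom also called 0 (22 at an unadjusted p under 0.05), but DESeq2 called 20 members higher, where it called 3.23% of all genes higher. mt-Rnr1, mt-Rnr2 and mt-Co1, which pass the filter in the WT libraries alone, were not among these calls. Some of the 20 were therefore tRNAs that needed the Wnt5a libraries to pass, so that their entry favoured a difference. Among rows with at least 15 counts, 5 members (mt-Atp8, mt-Tq, mt-Tp, mt-Tg and mt-Ts2, named after their values were seen) had all Wnt5a libraries above all WT libraries, against 0.552% of all such rows. Of these, mt-Ts2 reached 15 counts only through the Wnt5a libraries, with 22 reads there against 3 in WT, so that its entry favoured this outcome. Its 2 to 8 reads per Wnt5a library lie near the floor of 3 counts, and neither mt-Ts2 nor mt-Tg passed the filter of the fit.

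Single libraries changed these calls. Without the Wnt5a library 5, which lay in the WT range, 22 members passed as higher, where 4.45% of all genes were higher. Without the Wnt5a library 1, 4 passed, a count for which the share over all genes is not given, so it shows only that the calls moved. The Wnt5a libraries 4 and 5 carry a 3-digit number in their labels where all other LSK libraries carry 4 digits, and what the number stands for is not given. With the 4-digit libraries alone (6 WT and 3 Wnt5a), 15 members passed as higher, where 3.06% of all genes were higher. That fit leaves out Wnt5a 4, the library with the highest share. How many of these 22 and 15 members needed the Wnt5a libraries to pass the filter is not given here.

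The ATP synthase messages had among the largest values. mt-Atp6 (chrM:7927-8607) ranged over 1325, 1764 and 2363 CPM (lowest, median and highest) in WT and stood at 4410, 5334, 6421, 10961 and 1920 CPM in the Wnt5a libraries 1 to 5. All but library 5 were above the WT range. Its log2 fold change was 1.93 (SE 0.329, edgeR adjusted p = 0.0564). mt-Atp8 (chrM:7766-7969), with 173 to 273 CPM in WT and 274 to 1840 in Wnt5a, did not overlap and had 2.12 (SE 0.419, edgeR adjusted p = 0.0564).

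Complex I messages had log2 fold changes between 1.36 (mt-Nd1, SE 0.335) and 1.87 (mt-Nd3, SE 0.452), with edgeR adjusted p from 0.0564 to 0.0973. mt-Nd6 (chrM:13552-14070), the lone messenger RNA of the minus strand, ranged from 272 to 676 CPM in WT with a median of 429, and had 1483, 1385, 1847, 2128 and 450 CPM in Wnt5a, or 1.85 on the log2 scale (SE 0.332, edgeR adjusted p = 0.0564). Again the Wnt5a library 5 lay in the WT range. mt-Cytb of complex III, with 2829 to 4390 CPM in WT, had 3686, 13049, 6314, 20076 and 5160 CPM in Wnt5a and 1.70 (SE 0.373, edgeR adjusted p = 0.0571).

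Complex IV messages were less alike. mt-Co2 had 1.63 (SE 0.390) and mt-Co3 1.49 (SE 0.313), with edgeR adjusted p of 0.0817 and 0.0564. mt-Co1 had 0.70 (SE 0.314, edgeR adjusted p = 0.247), with 2935 to 4687 CPM in WT and 2414, 7858, 3100, 9191 and 3938 in Wnt5a. Only the Wnt5a libraries 2 and 4 were above the WT range for it.

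The rRNAs stood apart from the messages. mt-Rnr1, with 3158 to 9195 CPM in WT and 3719 to 7464 in Wnt5a, had 0.11 (SE 0.297, edgeR adjusted p = 0.878). mt-Rnr2 had 0.08 (SE 0.328, edgeR adjusted p = 0.921). In both the Wnt5a libraries lay within the WT range. Both values turned negative without the WT library 4 or 6 or the Wnt5a library 4, down to −0.041 for mt-Rnr1 and −0.12 for mt-Rnr2.

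The tRNAs mt-Tq (2.29, SE 0.558, edgeR adjusted p = 0.0773), mt-Tp (2.15, SE 0.435, adjusted p = 0.0564) and mt-Ts1 (1.23, SE 0.253, adjusted p = 0.0564) were all positive. mt-Tp had 13.7 to 32.2 CPM in WT and 66.6, 67.2, 56.1, 227 and 34.7 in Wnt5a, without overlap. The 1 negative value among the 28 was that of mt-Tf, the first gene after the start of heavy-strand transcription, with −0.98 (SE 0.685, edgeR adjusted p = 0.458) and at most 58 reads in a library. The last bases of mt-Ts1 on the minus strand overlap the end of mt-Co1, and whether the counting used strand is not given in the sources used here, so their reads may not be separated.

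The 9 minus-strand genes took 2.58% ± 0.247 of the mitochondrial reads in WT and 4.22% ± 1.56 in Wnt5a (SD, n = 6 and 5; exact permutation p = 0.00433, adjusted p = 0.0519). By library the Wnt5a values were 6.16%, 3.14%, 5.63%, 3.43% and 2.73%. Predicted genes that hold nuclear satellite repeats took 6.73%, 1.80%, 3.04%, 1.28% and 0.341% of all reads in the same order, and 0.0836% to 0.417% in WT. The Wnt5a library with the least of both was 5, in which immunoglobulin genes took 8.28% of reads. Whether satellite reads share a source with the mitochondrial difference was not tested.

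**Figure D5:**
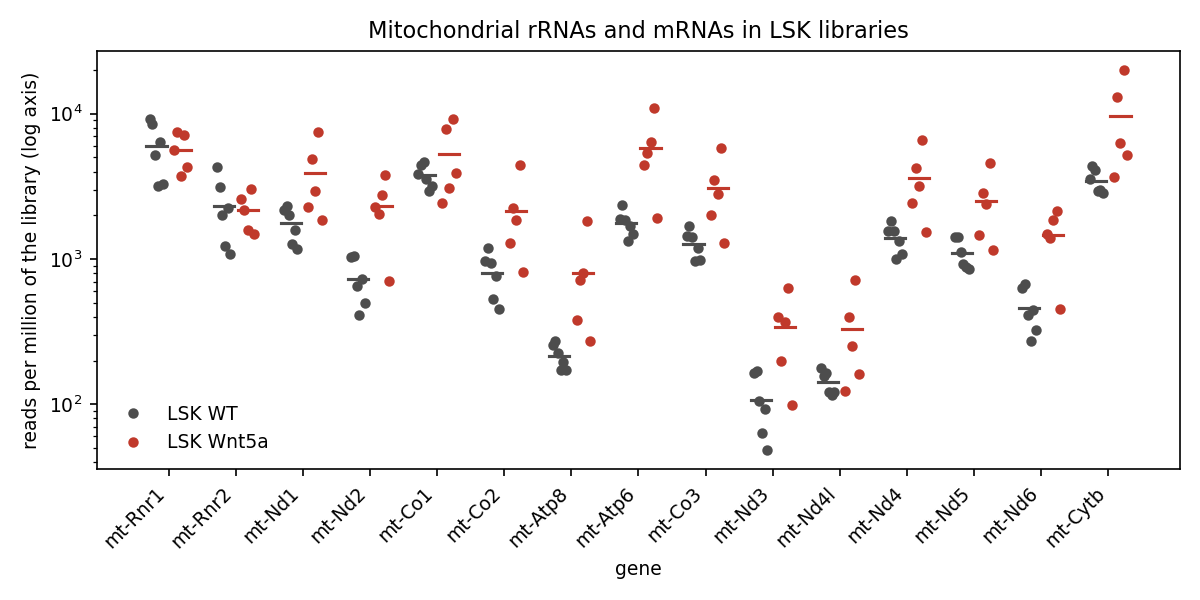
CPM (log scale) of the 13 messenger RNAs and 2 rRNAs in the LSK libraries, 6 WT and 5 Wnt5a; points are libraries and lines are means. For most messages 4 of the 5 Wnt5a points lie above the WT points, and for mt-Rnr1 and mt-Rnr2 the Wnt5a points lie within the WT range.

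In OBC both nuclear copies tested from the list of 12 fell, where 1.18% of all genes fell. Gm13340, which resembles mt-Co1, had 2338, 1209 and 1504 CPM in OBC WT and 671, 740 and 219 in OBC Wnt5a, or −1.72 on the log2 scale (SE 0.454, edgeR adjusted p = 0.0412). Gm13341, which resembles mt-Co2, had −3.06 (SE 0.632, edgeR adjusted p = 0.00532), and mt-Co2 itself was not analysed here for the niche. In LSK, Gm13341 had 2.05 (SE 0.493, edgeR adjusted p = 0.0701) and Gm10222, identical to mt-Nd4l over 294 aligned bases, 1.61 (SE 0.401, edgeR adjusted p = 0.0902). How reads that match both a member and a copy were counted is not given in the sources used here, so the values of these pairs are uncertain.

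The nuclear genes that work with the mitochondrial genome held no member past the test for niche genotype. Of 41 tested nuclear-encoded subunits of complexes I to V, 0 passed in OBC, 28 had positive and 13 negative log2 fold changes, and the median was 0.19. The smallest p-values were those of the complex I subunits Ndufa7 (3.14, SE 1.25) and Ndufc1 (2.21, SE 0.886), both with an edgeR adjusted p = 0.333. In EC 37 of the 41 were negative with a median of −0.55 and 0 passed, the smallest p-values being those of Cox7a2 of complex IV, at −1.40 (edgeR adjusted p = 0.196), and Ndufa4, at −0.94 (0.487). In MSC 21 were positive and 20 negative, with a median of 0.02 and 0 past the test.

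Between populations, of the 41, 1 was higher in OBC than in the others (Atp5a1, an ATP synthase subunit, 0.84, edgeR adjusted p = 0.0324), and 3 were lower (Ndufa7, −2.46, adjusted p = 0.000532; Atp5j, −1.78, adjusted p = 0.0176; Atp5b, −0.97, adjusted p = 0.0319). Of all genes tested 19.3% were higher and 26.8% lower, so both shares of the 41 lie under the background. Their median was −0.16, close to that of all genes tested (−0.24).

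In LSK, 55 of 78 tested nuclear subunits were positive and 23 negative, the median was 0.27, and 0 passed (21 at an unadjusted p under 0.05). Such p-values were common over all genes of this fit, so the 21 are not read as a result. Ndufa3 (1.18, SE 0.314, edgeR adjusted p = 0.0918) and Ndufa12 (0.72, SE 0.210, edgeR adjusted p = 0.109), both of complex I, had the smallest p-values. For proteins of the mitochondrial ribosome 0 passed, with 28 positive and 52 negative of 80 tested, led by Mrpl9 (−1.47, edgeR adjusted p = 0.0608) and Mrpl24 (−1.96, edgeR adjusted p = 0.0904). In the niche 3 of these ribosomal rows were tested, and Mrpl15 was higher in OBC than in the other populations (1.85, edgeR adjusted p = 0.000789), as were 19.3% of all genes.

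Factors that transcribe and process the mitochondrial genome were tested in LSK alone, since none passed the filter in the niche, and 0 of them passed. For transcription and replication of mitochondrial DNA 7 were positive and 10 negative, with Tefm, an elongation factor, at −1.07 and Mterf4 at −1.41 (edgeR adjusted p = 0.178 and 0.179). For RNA processing and stability 7 were positive and 14 negative, with Lrpprc, which binds and stabilises mitochondrial messenger RNAs, at −0.85 (edgeR adjusted p = 0.140) and Fastkd1 at −1.13 (edgeR adjusted p = 0.192). Of 10 translation factors 4 were positive and 6 negative, with Mtif3 at −1.29 and Mtrf1 at −1.30 (edgeR adjusted p = 0.217 and 0.218). All 7 tested regulators of mitochondrial biogenesis were positive, with a median of 0.49, led by Yy1 (0.68, edgeR adjusted p = 0.144) and Esrra (1.31, edgeR adjusted p = 0.233).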

How the data were processed

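The authors deposited raw read counts per Ensembl gene for LSK cells (Smart-seq2) and UMI counts per gene for the niche cells, both as whole numbers. STAR, featureCounts and mm10 (GRCm38) are named in the submitters' processing notes; the sources used here give no versions, annotation, UMI collapsing or use of strand. The members and gene lists were chosen with earlier results of these data known. Shares and CPM use plain library totals without spike-ins. In R 4.3.3, edgeR 4.0.16 (TMM scaling; filterByExpr at count 10, total 15; robust quasi-likelihood test) was run per table, with 11 LSK libraries in 1 fit and 18 niche libraries in another with 6 group means. The threshold was 0.05 after Benjamini-Hochberg adjustment across the whole fit, and every adjusted p of a gene comes from this test unless DESeq2 1.42.0 or limma 3.58.1 is named. Shares were compared by exact two-sided permutation tests, adjusted over 6 measures in 4 comparisons, or over 3 pairs of populations. Named were all messenger RNAs and rRNAs, tRNAs past a test or with at least 10% of a table's mitochondrial tRNA counts, and of each nuclear list those past the test and the 2 with the smallest p. Nuclear copies were found with blastn 2.17.0 (at least 90% identity over 50 bases). Intervals (95%, Clopper-Pearson) and the floor of 3 counts cover counting error only. No pair of libraries held identical values. The alternatives are named in the closing section. The scripts were tested on simulated data.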

Additional observations from a re-analysis of the deposited data

Results flagged for a closer look

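The genotype difference of the mitochondrial share was negative in OBC and positive in EC and MSC. In percentage points the gap between these differences was −9.43 for OBC minus EC and −9.96 for OBC minus MSC, by exact permutation of genotype within populations (p = 0.005 each, the smallest that 400 arrangements can give). That p is for no genotype difference in either population, and does not by itself test whether the differences are equal.

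Among single genes, the log2 fold change of Wnt5a over WT differed between OBC and EC for mt-Nd3 (−4.52), mt-Nd4 (−2.71) and mt-Nd5 (−3.83), and between OBC and MSC for mt-Nd1 (−2.67) and mt-Nd5 (−4.29), by edgeR's quasi-likelihood interaction test. The 2 contrasts share the OBC libraries. mt-Nd3 and mt-Nd5 passed the filter on low counts only through the OBC WT libraries, where they are high.

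Of 42 values in the LSK groups examined for a library far from the others, 0 were found, where chance would give about 1 in 20.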

How the results depend on the processing

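Small counts limit the niche results: OBC libraries hold 10635 to 29772 UMIs. With messenger RNAs alone in the share, the LSK difference was 2.43 points, against 2.41 with all members. Its adjusted p = 0.0346 (exact permutation) came from a family of tests in which this measure was repeated. In the main family the same comparison had an adjusted p = 0.0519, so it is not counted as past the threshold. With messenger RNAs alone MSC exceeded EC by 0.179 (adjusted p = 0.025), and the genotype difference of MSC minus that of EC changed sign to −0.0227 (adjusted p = 0.885). Without rRNA-overlap, satellite, haemoglobin and immunoglobulin genes in the total, MSC exceeded EC by 0.908 (adjusted p = 0.025). All other share differences kept their direction and side of the threshold under these settings and with nuclear copies added, an alternative chosen after seeing the data.

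Members called higher in LSK numbered 20 with DESeq2, 15 with the 4-digit libraries and 4 without the filter, against 0 in the main test. The limit of the filter given above holds for the DESeq2 count. mt-Rnr2 changed sign with the 4-digit libraries (−0.035). With DESeq2, 0 members fell in the niche mean, 8 were lower for OBC minus EC and 4 in MSC against the rest. With limma voom the joint interaction called 2, OBC minus EC 1 and OBC minus MSC 1. Without the filter these were 8, 5 and 6, and MSC against the rest 1. RLE scaling left 1 for OBC minus MSC, and MSC fitted alone called 1. DESeq2 and single-population fits gave no joint interaction value and were not run for it. Where no share over all genes is given above, these counts show only that the calls moved. The cause of these differences was not tested.

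Leaving out each library in turn gave share differences of 1.42 to 3.02 points in LSK, 0.495 to 1.15 in EC, −10.3 to −6.95 in OBC and 0.921 to 1.81 in MSC. Between populations they were 8.54 to 9.84 (OBC minus EC), 7.86 to 9.15 (OBC minus MSC) and 0.448 to 0.892 (MSC minus EC), and between genotype differences −11.1 to −7.81, −11.7 to −8.34 and 0.0589 to 0.949 for the same pairs. Members called ranged from 0 to 22 in LSK, 0 to 1 in EC, 3 to 7 in OBC, 0 to 2 in the niche mean, 2 to 8 in the joint interaction, 0 to 8 for OBC minus EC, 1 to 7 for OBC minus MSC, 1 to 4 in MSC against the rest, 10 to 11 in OBC against the rest and 9 to 10 in EC against the rest. The LSK log2 fold change ran from −0.041 to 0.30 for mt-Rnr1 and from −0.12 to 0.38 for mt-Rnr2. No paired analysis was possible because the groups compared share no replicate number in the labels.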
